A study of Mus musculus with 26 samples.

Results

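Promoter contacts of mouse embryonic stem cells (ESCs) that lack *Nanog* were compared with those of wild-type (WT) ESCs, promoter by promoter. Promoter Capture Hi-C (PCHi-C) joins restriction fragments that lie close together in the nucleus and enriches the ligation products that contain a baited promoter. The members are the baited HindIII fragments with at least 1 contact on their own chromosome (a cis pair of fragments) in the WT or the Nanog-/- list, which holds for 17803 of the 19022 fragments baited in any list of the study. No expression value was used to choose them. WT ESCs are the E14Tg2a line, and Nanog-/- ESCs are RCNβH-B(t), a line derived from E14Tg2a, so the comparison is of 1 line with 1 line. Both grew on gelatin in medium with 15% FBS and 1000 U/ml LIF, and the Nanog-/- cells were also kept in 25 µg/ml hygromycin while they were expanded. The growth protocol gives 129P2/OlaHsd as the background of E14Tg2a, whereas the strain label reads C57BL/6. Epiblast-derived stem cells (EpiSCs), from 129S2 embryos and grown with Activin A and bFGF, stand beside the comparison as a scale. The PCHi-C labels name 5 lanes of WT ESCs, 5 of Nanog-/- ESCs, and 2 of EpiSCs, and each cell type has 1 list that, per the study's methods, combines 2 biological replicates. RNA-seq (3 WT, 3 Nanog-/-, and 4 EpiSC samples) is given as 1 median RPKM (reads scaled to transcript length and library size) per group, and the Nanog-/- column, headed by a code, was identified because the other columns name the other groups.

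NANOG is a homeodomain transcription factor of the naive pluripotency network, and it binds many ESC enhancers together with OCT4 and SOX2. ESCs without it can still self-renew, although they differentiate more readily, with primitive endoderm as a common outcome. A promoter can meet distal enhancers, other promoters, and repressed regions, and long contacts often join developmental genes to their regulatory landscapes or gene clusters to one another.

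Each list gives the read pairs that join the fragments and a CHiCAGO score, which weighs these reads against the background at that distance, and no pair has a score under 5. Where a pair had an entry for each end, it entered the numbers a single time. The WT list held 99706 cis pairs with 2173188 reads, the Nanog-/- list 74585 with 1436746 reads, and the EpiSC list 86981 with 1648860 reads. These sums cover listed pairs only, so the depth of the libraries is unknown. A pair missing from a list fell short of the score there and was not shown to be absent. Pairs with an entry for each end numbered 7324, 7297, and 5593 in the WT, Nanog-/-, and EpiSC lists, and the read numbers of the ends differed for 29, 1217, and 13 of them, so the Nanog-/- list stands apart in this respect. Without any such pair, the share of WT pairs found in the Nanog-/- list was 41.2% instead of 41.9%. There is no replicate error for any contact or RNA value. Intervals cover counting error only, and no p-value is given.

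The promoter sequences below show members that the results turn on. They are the 250 bases before the RefSeq start site that lies in the baited fragment (GRCm38.p6), written 5′ to 3′ on the gene's strand, with each CG dinucleotide in capitals, because the GC content of the baited fragment moved with the direction of change. *Zbtb4* (plus strand, chr11:69765662-69765911), *Cyp2d26* (minus strand, chr15:82794246-82794495), and *Pdgfra* (plus strand, chr5:75152001-75152250) rose in the number of pairs. *Trip13* (minus strand, chr13:73937768-73938017) and *Foxa1* (minus strand, chr12:57546112-57546361) fell, and *Nanog* (plus strand, chr6:122707239-122707488) is the targeted gene.
Zbtb4: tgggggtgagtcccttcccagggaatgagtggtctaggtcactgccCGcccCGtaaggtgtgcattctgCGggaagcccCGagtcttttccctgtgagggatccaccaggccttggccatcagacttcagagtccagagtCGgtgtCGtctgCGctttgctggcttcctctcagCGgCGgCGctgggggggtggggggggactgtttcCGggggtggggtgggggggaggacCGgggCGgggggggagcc
Cyp2d26: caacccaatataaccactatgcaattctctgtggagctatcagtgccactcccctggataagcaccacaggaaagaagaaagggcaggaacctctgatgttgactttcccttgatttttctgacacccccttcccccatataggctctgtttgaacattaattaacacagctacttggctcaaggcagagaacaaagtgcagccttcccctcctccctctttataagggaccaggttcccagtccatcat
Pdgfra: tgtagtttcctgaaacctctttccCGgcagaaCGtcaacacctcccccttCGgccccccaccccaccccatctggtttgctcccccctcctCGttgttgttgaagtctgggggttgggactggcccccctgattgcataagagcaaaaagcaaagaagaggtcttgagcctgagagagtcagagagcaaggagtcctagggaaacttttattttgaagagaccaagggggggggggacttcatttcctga
Trip13: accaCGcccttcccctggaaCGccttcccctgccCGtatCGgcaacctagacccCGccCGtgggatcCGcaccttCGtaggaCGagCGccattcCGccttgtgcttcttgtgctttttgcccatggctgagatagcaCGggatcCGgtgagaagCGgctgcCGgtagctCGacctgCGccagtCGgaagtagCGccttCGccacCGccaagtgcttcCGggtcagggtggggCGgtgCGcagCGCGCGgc
Foxa1: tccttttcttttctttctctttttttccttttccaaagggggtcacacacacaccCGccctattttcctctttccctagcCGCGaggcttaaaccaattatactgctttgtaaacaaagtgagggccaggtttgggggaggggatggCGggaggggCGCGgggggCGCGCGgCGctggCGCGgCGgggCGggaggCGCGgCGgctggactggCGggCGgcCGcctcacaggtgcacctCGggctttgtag
Nanog: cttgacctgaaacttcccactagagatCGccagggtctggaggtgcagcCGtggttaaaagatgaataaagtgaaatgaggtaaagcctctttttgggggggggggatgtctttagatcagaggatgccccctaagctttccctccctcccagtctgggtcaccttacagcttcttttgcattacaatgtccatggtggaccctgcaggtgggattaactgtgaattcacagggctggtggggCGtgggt
The windows hold 13, 0, 4, 27, 21, and 3 CG dinucleotides in this order. Single promoters thus ran against the trend described further on, since *Trip13* and *Foxa1*, which lost pairs, are the richest in CG.

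Contacts of Nanog-/- ESCs were shorter. The median distance between fragment midpoints was 139 kb in the WT list (quartiles 52.8 and 255 kb), 74.1 kb in the Nanog-/- list (21.9 and 169.9 kb), and 141 kb in the EpiSC list. Under 25 kb there were more pairs in Nanog-/- ESCs, 20466 against 15178 in WT ESCs and 12276 in EpiSCs. The numbers of WT and Nanog-/- ESCs were 8947 and 9996 from 25 to 50 kb, and 15007 and 13002 from 50 to 100 kb. Beyond this the Nanog-/- list fell further behind at each step. It held 16482 pairs against 25483 from 100 to 200 kb, 11574 against 25377 from 200 to 400 kb, and 2789 against 8421 from 400 to 800 kb. From 800 kb to 2 Mb 248 pairs remained against 1174, a ratio of 0.211. EpiSCs had 1471 pairs in that band, and their ratio to WT ESCs lay between 0.802 and 0.918 in each band from 25 to 800 kb. Above 800 kb, the share of cis pairs was 1.30% in WT ESCs (Wilson 95% interval 1.23% to 1.37%) and 0.370% in Nanog-/- ESCs (0.329% to 0.416%), and 1.78% in EpiSCs.

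**Figure D1:**
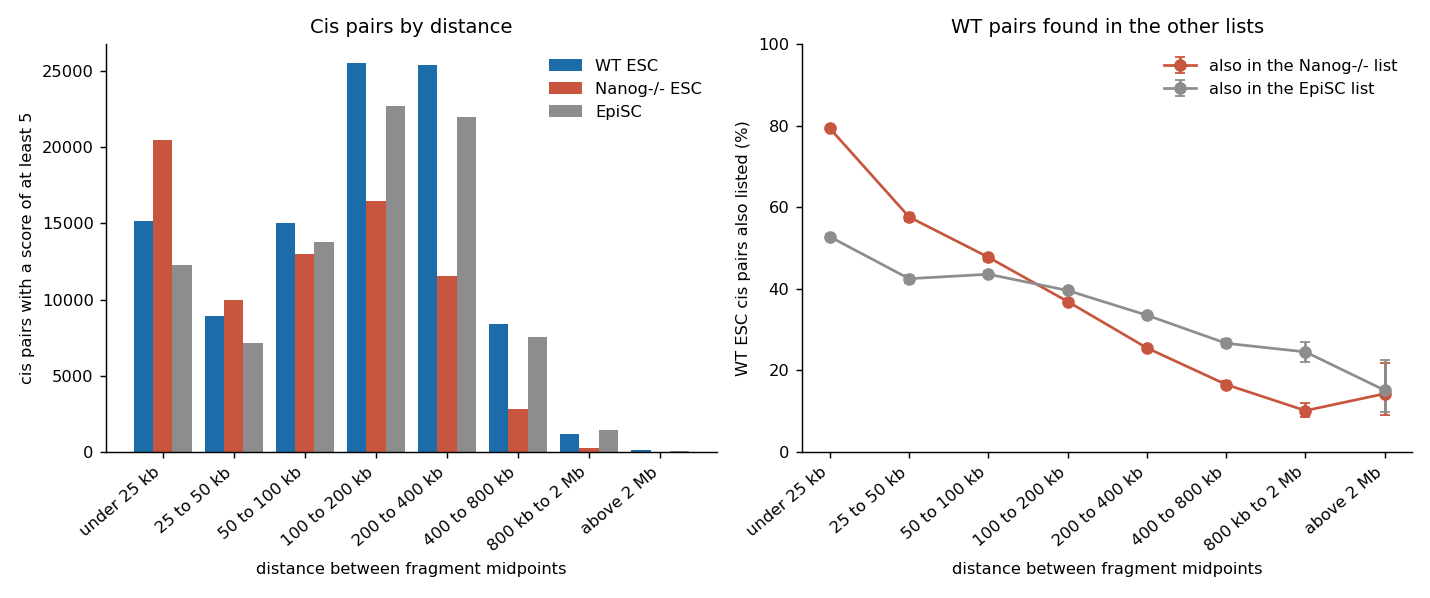
Number of cis pairs with a score of at least 5 in each distance band for the 3 lists (left, bars) and the share of WT pairs also found in the Nanog-/- and EpiSC lists (right, points with Wilson 95% intervals). The Nanog-/- list holds 20466 pairs under 25 kb, more than the other lists, and 248 from 800 kb to 2 Mb, and its share of WT pairs falls from 79.3% to 10.1% between these bands.

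Of the WT pairs, 41748 were also listed in Nanog-/- ESCs, which is 41.9% of the WT list (41.6% to 42.2%) and 56.0% of the Nanog-/- list (55.6% to 56.3%). The share of WT pairs found again fell with distance, from 79.3% under 25 kb to 47.7% at 50 to 100 kb, 25.5% at 200 to 400 kb, and 10.1% at 800 kb to 2 Mb. The share of Nanog-/- pairs found in WT ESCs stayed between 48.0% and 58.8% in the bands up to 2 Mb. Pairs in both lists had a median WT score of 7.63 and a median distance of 74.1 kb. The 57958 pairs of the WT list alone were weaker (median score 6.05) and longer (188 kb), and the 32837 pairs of the Nanog-/- list alone had a median score of 5.94 and a distance of 74.2 kb. A partner within 10 kb was listed for the same promoter in the other cells for 38.1% of the WT-only and 50.3% of the Nanog-/--only pairs. Partner fragments without a bait overlapped an exon in 33.8% of WT-only pairs, 39.4% of Nanog-/--only pairs, and 41.5% of shared pairs.

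The read numbers of the shared pairs did not follow the same course. Their median log2 ratio of Nanog-/- to WT reads was -0.70 under 25 kb, -0.66 at 100 to 200 kb, and -0.49 at 800 kb to 2 Mb. These pairs reached the score minimum in both lists, which 79.3% of WT pairs did under 25 kb and 10.1% from 800 kb to 2 Mb. Pairs whose reads fell most tend to be left out, so the ratio cannot show how reads changed over all WT pairs. Pairs just past the score minimum (5 to 5.5) had a median of 45 reads in WT and 26 in Nanog-/- ESCs under 25 kb, 10 and 7 at 100 to 200 kb, and 5 and 4 at 800 kb to 2 Mb. The reads that went with a listed pair were thus 0.578 times those of WT ESCs at short and 0.8 times at long range. For 72.9% of the shared pairs under 25 kb, and 27.7% of those from 800 kb to 2 Mb, the score was higher in Nanog-/- ESCs. Among pairs with at least 10 reads, 0.125% of the WT and 0.0311% of the Nanog-/- pairs were longer than 800 kb. Over all pairs these shares were 1.30% and 0.370%. The difference was -0.094 percentage points against -0.93 for all pairs, and both shares were smaller with at least 10 reads. With the WT list shortened to the number of Nanog-/- pairs the difference was -0.88. Whether the libraries differed in depth cannot be read from the lists.

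**Figure D2:**
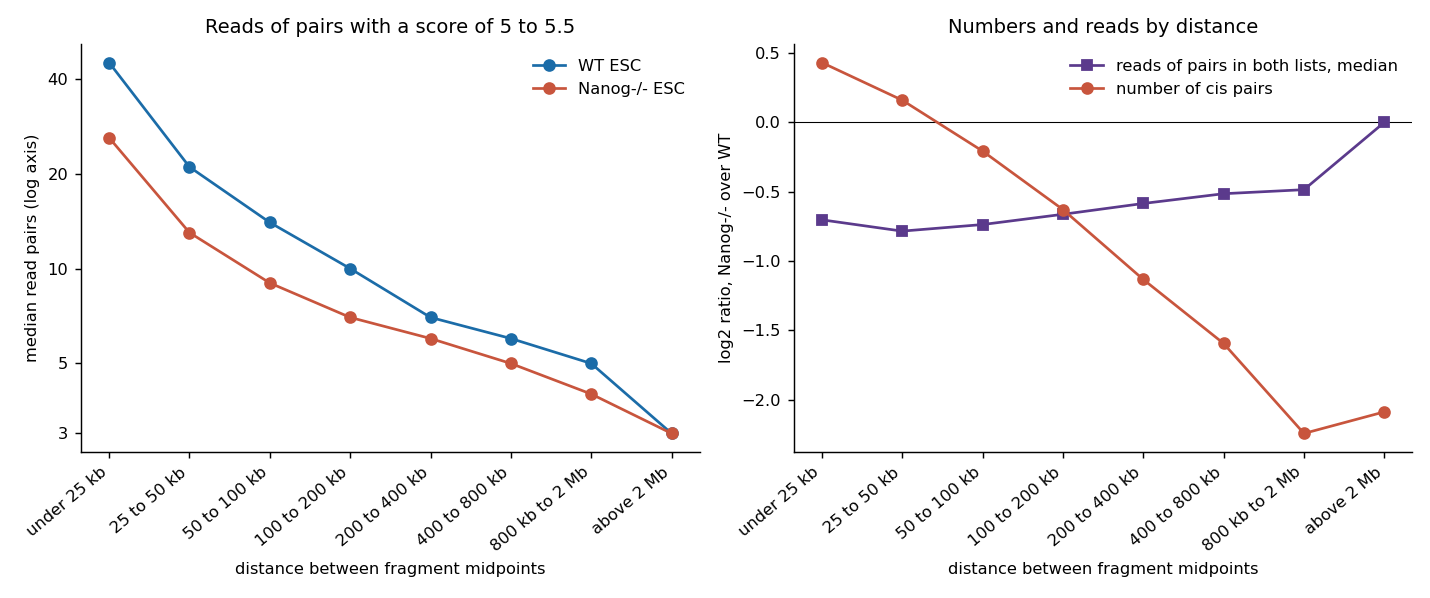
Median reads of pairs with a score of 5 to 5.5 in each distance band for WT and Nanog-/- ESCs (left, log axis), and the log2 ratio of Nanog-/- to WT ESCs for the number of cis pairs and for the median reads of the pairs in both lists (right). The number falls from above to far below the WT level with distance, whereas the median read ratio of shared pairs stays between -0.78 and -0.49 up to 2 Mb. Shared pairs passed the score minimum in both lists, so this ratio leaves out WT pairs that fell below it.

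The shift was shared by most promoters. Among 5518 promoters with at least 5 cis pairs in each list, the middle promoter had a median distance of 114 kb in WT ESCs and 74.3 kb in Nanog-/- ESCs. The median was shorter in Nanog-/- ESCs for 4373 of them (79.2%, Wilson 95% interval 78.2% to 80.3%), at least 2-fold shorter for 1197 (21.7%), and at least 2-fold longer for 33 (0.598%). Set against WT ESCs in the same way, the median in EpiSCs was shorter for 54.6% of 5582 promoters, and at least 2-fold shorter for 8.13%.

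From 800 kb to 2 Mb, 783 promoters had a WT pair, 220 had one in Nanog-/- ESCs, and 149 had one in both. The number was higher in Nanog-/- ESCs for 80 promoters, by at most 2 pairs. The places and promoters of this paragraph and the next were chosen after their values were seen, from those with most such WT pairs. Replication-dependent histone genes, which supply histones in S phase, lie in separate blocks on chromosome 13. Of pairs of this length whose left end lay in chr13:21000001-23000000, 123 were listed in WT ESCs, 13 in Nanog-/- ESCs, and 100 in EpiSCs, and 8 of the WT pairs were found again. The WT pairs had a median of 4 reads. *Abt1* (chr13:23416351-23427450), an activator of basal transcription, had 33 of its 71 WT pairs in this range, against 7 of 33 in Nanog-/- ESCs and 21 of 28 in EpiSCs. The zinc finger gene *Zfp184* (chr13:21940689-21946098) went from 18 such pairs to 1, with 3 in EpiSCs, and *Btn2a2*, a butyrophilin gene, from 19 to 2, with 14 in EpiSCs. All 3 promoters had fewer long pairs in Nanog-/- ESCs than in either of the other lists. Their choice by WT number favours such a fall, and the whole Nanog-/- list held 0.211 times the WT pairs in this band.

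Developmental genes were also among the promoters with the most long pairs. *Shh* (chr5:28463005-28467167), a morphogen whose limb enhancer lies in a distant intron of *Lmbr1*, had 13 pairs in this range in WT ESCs (131 reads), 4 in Nanog-/- ESCs (38 reads), and 18 in EpiSCs. All 4 were also in the WT list. Its RNA was listed at 0 RPKM in WT ESCs, at 0.026 in Nanog-/- ESCs, and at 106 in EpiSCs. *Mnx1*, the motor neuron homeobox gene near by, had 13, 2, and 15 long pairs in WT ESCs, Nanog-/- ESCs, and EpiSCs. *Foxa1* (chr12:57540076-57547561), an endoderm pioneer factor, had 10, 1, and 2. Its total fell from 15 pairs to 1, and the pair that remained, at 850 kb, had the highest score in both lists (30.74 from 15 reads in WT and 20.27 from 9 reads in Nanog-/- ESCs). *Igfbp3*, which encodes an IGF-binding protein, had 17, 7, and 23 long pairs, and *Cadm3*, a neural adhesion molecule gene, had 18, 4, and 7. The olfactory receptor gene *Olfr412* had 12 in WT ESCs and none in the other lists. By contrast, *1810030J14Rik* had 13, 8, and 9 such pairs, and all 8 of Nanog-/- ESCs were WT pairs (219 reads in all its WT pairs of this length and 170 in Nanog-/- ESCs). The read numbers here are small, and 80 of the WT pairs and 11 of the Nanog-/- pairs from 800 kb to 2 Mb had at least 10 reads.

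Contacts beyond 2 Mb were rare, with 119 pairs in WT and 28 in Nanog-/- ESCs, 17 of them shared. The shared ones included the strongest. The defensin gene *Defb15* met a fragment 2.81 Mb away (chr8:19124472-19125933) with 74 reads in WT and 80 in Nanog-/- ESCs (scores 30.64 and 360.02). *Rimkla* met a fragment 3.36 Mb away with 43 and 62 reads (scores 31.97 and 256.73). The far fragment of *Defb15* was also listed with *Defb13*, at 3 reads in each list. How reads shared between similar gene copies were assigned is not given in the sources used here. *Bbs4*, a Bardet-Biedl syndrome gene, had a pair over 3.34 Mb with 27 and 19 reads (scores 89.61 and 30.04). The pair of *Hrk* and *Lhx5* over 2262 kb had 14 and 5 reads (scores 29.34 and 7.14). Over the 17 shared pairs the median score was 15.1 in WT and 9.08 in Nanog-/- ESCs.

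The number of contacts per promoter was compared next. Nanog-/- numbers were multiplied by 1.34, the ratio of the total cis pairs, and a change was expressed as log2 of the scaled Nanog-/- number plus 1 over the WT number plus 1. The unscaled median change was -0.32, and the scaled one 0.07 (quartiles -0.38 and 0.49). Both lists named 13317 promoters, 3659 were in the WT list alone (median 2 pairs, at most 17), and 827 in the Nanog-/- list alone (at most 11). Of the 6862 promoters with at least 10 pairs summed over both lists, 511 (7.45%) had at least 2-fold more scaled pairs and are called gained, and 560 (8.16%) had at least 2-fold fewer and are called lost. Without scaling the numbers were 237 and 1295, and with a score minimum of 7 they were 201 and 274 of 2934 promoters, of which 63 and 91 were among those called at 5. Against an expectation from the distances of each promoter's WT pairs, in which each distance band keeps its own ratio of the lists, 406 (5.92%) were gained and 481 (7.01%) lost. Both rules gave 300 gained and 357 lost. The exact 95% counting intervals of the scaled numbers were separate for 40 promoters that were higher (0.583%) and 69 that were lower (1.01%) in Nanog-/- ESCs. The calls are a rule of size on 1 list per genotype, not a test. Over all 17803 promoters, the WT and Nanog-/- numbers had a Pearson r of 0.869 and a Spearman rho of 0.753, which is a description of points that share neighbours and bait efficiency.

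**Figure D3:**
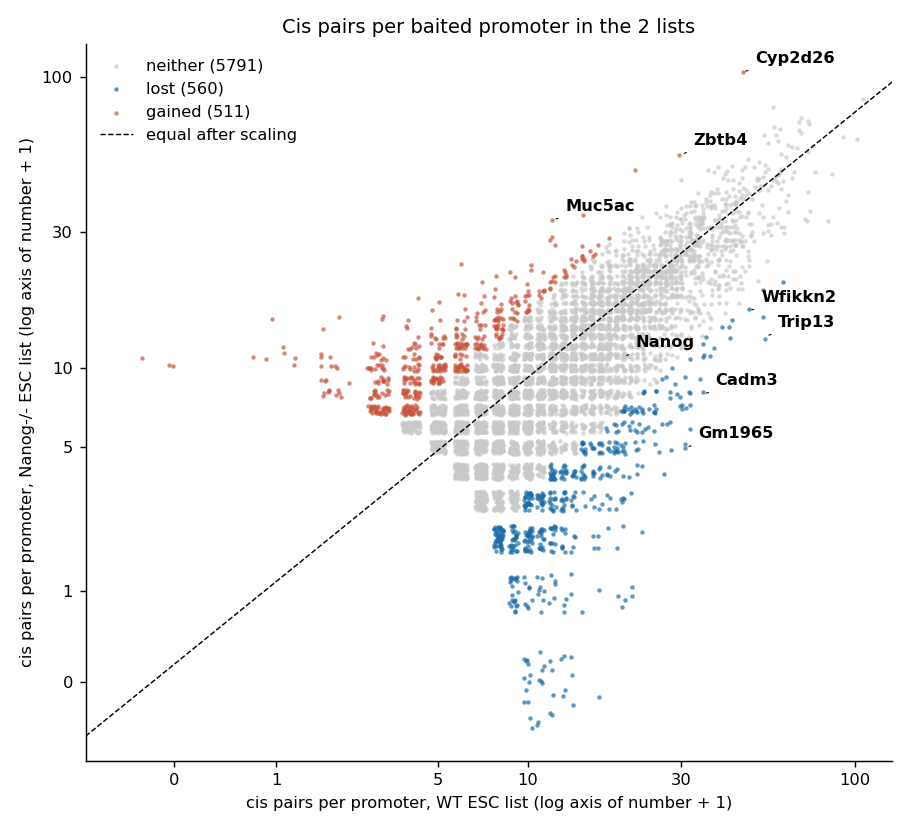
Cis pairs per baited promoter in the WT (x axis) and Nanog-/- (y axis) lists for the 6862 promoters with at least 10 pairs summed, on log axes of the number plus 1 with a small random offset. Colours mark the 511 gained and 560 lost promoters, the dashed line marks equal scaled numbers, and most promoters lie within 2-fold of it.

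Of the promoters with a rise, *Cyp2d26* stood out. This cytochrome P450 gene (chr15:82792498-82795748) had 46 pairs in WT ESCs, 104 in Nanog-/- ESCs, and 27 in EpiSCs, a scaled difference of 93.0 pairs and a 3.02-fold rise. Within 100 kb it had 5 pairs in WT and 24 in Nanog-/- ESCs, and above 200 kb it had 35 and 55, so the gain was not limited to short contacts. Its pairs held 952 reads in WT and 2334 in Nanog-/- ESCs, and 40 pairs were shared. *Zbtb4* (chr11:69765386-69767966), a zinc finger protein gene whose product binds methylated DNA, rose from 30 pairs to 55, with 27 in EpiSCs. Among its 26 pairs of the Nanog-/- list alone were the promoters of *Tnfsf12*, *Polr2a*, *Efnb3*, *Sox15*, and *Fxr2*, and 29 of its 30 WT pairs were kept. The pair with *Tnfsf12* over 71.6 kb had 46 reads and a score of 34.65 in Nanog-/- ESCs and was absent from the WT list, but it was listed in EpiSCs. The secreted mucin gene *Muc5ac* (chr7:141784007-141791205) rose from 12 to 33, with 16 in EpiSCs, and the noncoding *Gm10612* from 12 to 29, with 24 in EpiSCs. For these 4 promoters the counting intervals were separate and both rules called a gain.

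A further 8 promoters were among the largest rises of the scaled number but were not called gained by the total. Their numbers are given as listed, before scaling, and some of these rose by few pairs. The bait of *Mir1941*, next to the type II keratin genes (chr15:101368088-101373206), had 57 pairs in WT ESCs, 79 in Nanog-/- ESCs, and 42 in EpiSCs, and met the promoters of *Krt5*, *Krt75*, and *Krt86* in Nanog-/- ESCs alone and those of *Krt8* and *Krt18* in WT ESCs alone. *Mir196a-2*, in the Hoxc cluster, had 57, 68, and 40 pairs. The tektin gene *Tekt4*, for a protein of cilia, had 53, 64, and 43, and the lipocalin gene *Lcn12* had 36, 49, and 31. *Glp1r*, the receptor of glucagon-like peptide 1, had 43, 50, and 34 pairs. The noncoding *Gm12200* had 30, 45, and 23, *E130303B06Rik* 60, 67, and 62, and *A730018C14Rik* 69, 73, and 65. The intervals were separate for *Mir1941* and *Gm12200*, which the distance rule called gained (log2 1.45 and 1.25), and overlapped for the other 6.

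Among the falls, *Trip13*, an AAA ATPase of the mitotic checkpoint and of meiosis (chr13:73935702-73938404), went from 54 pairs to 13, with 59 in EpiSCs. Of its WT pairs 44 were missing, among them the promoters of *Tert*, *Cep72*, *Pdcd6*, *Slc9a3*, and *Slc12a7*, and 3 were new. Its pairs within 100 kb fell from 17 to 6 and those above 200 kb from 27 to 3. *Wfikkn2*, for a secreted antagonist of growth factors of the TGF-β family (chr11:94245141-94251187), kept 16 of 48 pairs and had no new one, with 33 in EpiSCs. Here the median distance went from 120 kb to 14.3 kb. *Cadm3* (chr1:173366636-173369516) fell from 35 to 8, with 14 in EpiSCs. The processed pseudogene *Gm14188* among the type I keratin genes (chr11:99760232-99765533) fell from 61 to 20, with 16 in EpiSCs, and 22 of its 47 missing partners were promoters, mainly of keratin-associated protein and keratin genes. The lincRNA *Gm1965* fell from 31 to 5, with 6 in EpiSCs. *snoU13.14* fell from 53 to 15, with 47 in EpiSCs, and *1810063B07Rik* from 42 to 13, with 9 in EpiSCs. The counting intervals were separate for these 7 promoters. They were also separate for *0610010O12Rik*, at 83 pairs in WT ESCs, 33 in Nanog-/- ESCs, and 30 in EpiSCs, which is a fall of under 2-fold after scaling. The falls of *1810006K21Rik* (72, 33, and 41 pairs), *Abt1* (71, 33, and 28), *SNORD121A.2* (73, 35, and 40), and *AL844481.1* (51, 20, and 64) were within the intervals. Under the distance rule *Cadm3* (log2 -0.44), *1810063B07Rik* (-0.91), and *Gm14188* (-0.94) were no longer called. The change of *Wfikkn2* was -0.89 with a score minimum of 7 and 0.34 with a minimum of 10, so its direction depends on the pairs of low score.

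**Figure D4:**
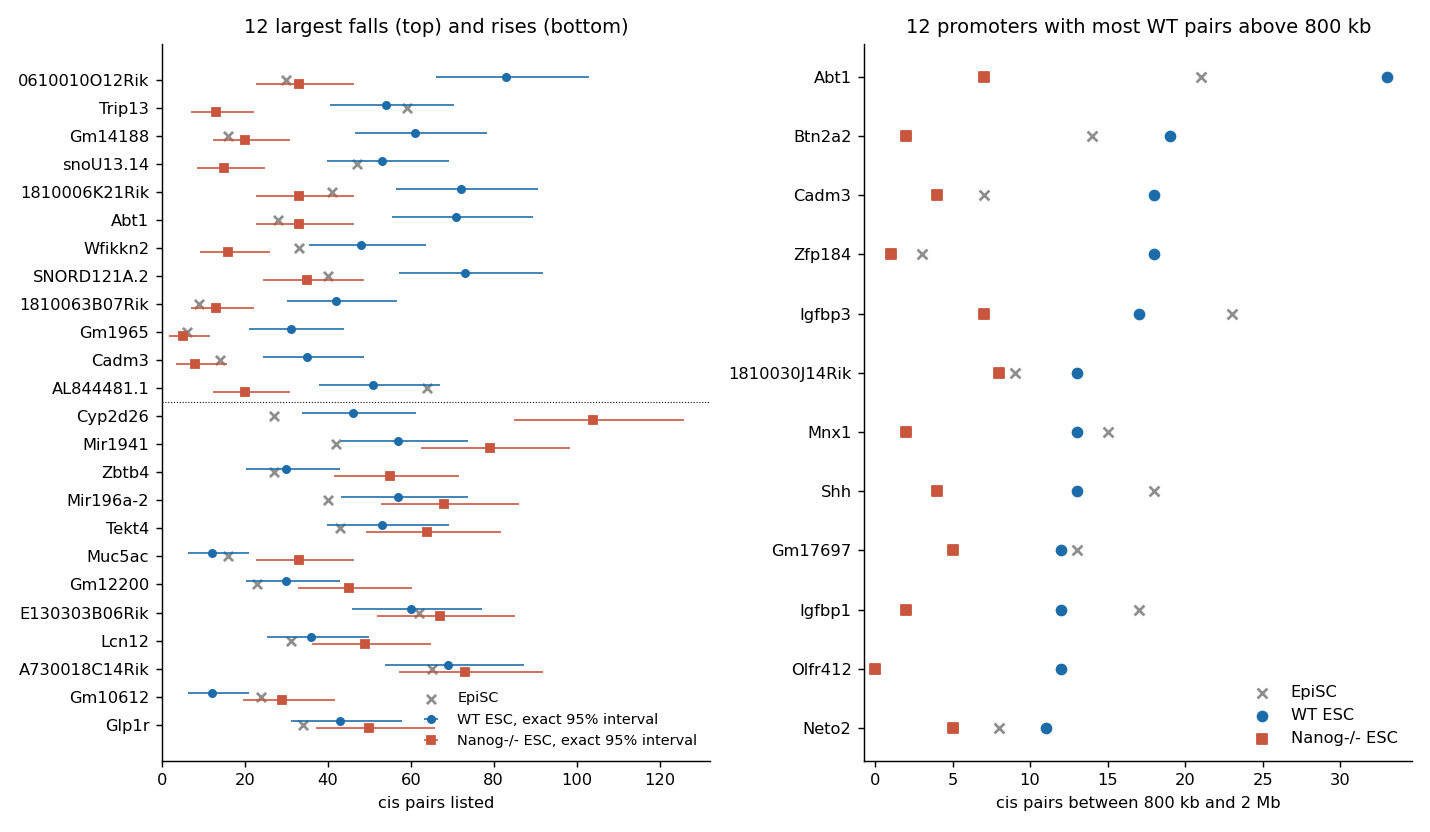
Left, cis pairs of the 12 promoters with the largest falls and the 12 with the largest rises of the scaled number, as listed (not scaled), with exact 95% counting intervals for WT and Nanog-/- ESCs and EpiSC numbers as crosses. Right, pairs from 800 kb to 2 Mb for the 12 promoters with most of them in WT ESCs, such as Abt1 (33 and 7 in WT and Nanog-/- ESCs) and Olfr412 (12 and 0). Nanog-/- numbers lie below WT numbers at each promoter, which the choice by WT number favours.

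The direction of change moved with base composition and place. The median GC content of the baited fragment was 51.8% for gained, 44.9% for lost, and 49.5% for all tested promoters. In the quintile of promoters with the lowest GC, 1.75% were gained and 22.3% lost, and in the highest quintile 12.2% were gained and 2.19% lost. The median scaled change rose across the quintiles from -0.41 to 0.29, and from -0.35 to 0.26 under the distance rule. In the 250 bases before the start site, a CG was present in 97.9% of 280 gained, 90.5% of 305 lost, and 96.8% of 3681 tested promoters with a RefSeq start in the bait, with medians of 13, 9, and 12. Of all 32841 RefSeq promoter windows, 92.1% held one. By chromosome, the ratio of Nanog-/- to WT pairs ran from 0.465 on X and 0.597 on 18 to 0.838 on 2 and 0.899 on 15, where the total of all chromosomes is 0.748. In EpiSCs the ratio was 1.20 on X and 0.863 on 15. Chromosome 15 held 8.02% of gained promoters, against 4.71% of those tested, and 11.1% of those gained and 0.832% of those lost by the distance rule. Its shared pairs had a median log2 read ratio of -0.60, against -0.69 over all chromosomes, and the median log2(RPKM + 1) change of its genes with at least 1 RPKM was 0.09, as on chromosome 6. Without chromosome 15, 470 promoters were gained and 549 lost. After the scaled change was centred within each GC quintile, 429 were gained and 514 lost, of which 344 and 412 were called before. Adjacent tested promoters within 100 kb of each other, which share partners, changed in the same direction in 62.0% of 4623 cases.

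Some neighbourhoods had calls in 1 direction only, which their choice from the ends of a ranking by change favours. Over all tested promoters 7.45% were gained and 8.16% lost. Among 456 windows of 1 Mb with at least 5 tested promoters, ranked by their median change, the lowest was chr10:21000001-22000000 with 89 pairs in WT ESCs, 21 in Nanog-/- ESCs, and 67 in EpiSCs, and 4 of its 5 promoters were lost. The beta-defensin region chr8:21000001-22000000 had 124, 37, and 55 pairs, with 6 of 7 promoters lost. The protocadherin window on chromosome 18 (37000001 to 38000000) had 413, 155, and 280 pairs with 9 of 21 lost, and the olfactory receptor window chr7:102000001-103000000 had 356, 156, and 276 with 9 of 23 lost. None of these 4 windows held a gained promoter. At the other end, chr8:122000001-123000000 had 102, 158, and 128 pairs with 7 of 14 promoters gained, chr2:28000001-29000000, the place of *Barhl1*, had 80, 104, and 69 with 4 of 8 gained, and chr17:25000001-26000000, the place of *Tekt4*, had 329, 446, and 221 with 11 of 27 gained. No promoter was lost in these 3. Other windows near the ends of the ranking held calls of both kinds. In chr19:34000001-35000000, 1 of 6 promoters was gained and 3 were lost, and in chr2:32000001-33000000, 5 of 18 were gained and 1 was lost.

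RNA gives the state of the cells. *Nanog* itself was at 418 RPKM in WT ESCs, 22.3 in Nanog-/- ESCs, and 361 in EpiSCs, which checks the labels, although some reads of the gene were still counted in the mutant. *Pou5f1*, which encodes OCT4, was at 1159 and 1129 RPKM in WT and Nanog-/- ESCs, and *Sox2* at 397 and 364. These general pluripotency genes were at 1422 and 137 RPKM in EpiSCs, so they do not tell ESCs from EpiSCs. Of 20 naive pluripotency genes with a bait, 4 were at least 2-fold lower in Nanog-/- ESCs and 1 was higher on the scale of log2(RPKM + 1). *Klf4* was at 93.0 and 31.7 RPKM, *Dppa3* at 74.1 and 13.6, and *Sox15* at 48.1 and 13.3. Primitive endoderm markers, which define the extraembryonic lineage that forms beside the epiblast, were at least 2-fold higher for 11 of 17 genes. Over the genes of all tested promoters 1.61% were at least 2-fold higher and 1.42% lower. The RPKM of the 17 primitive endoderm genes summed to 238 in WT and 496 in Nanog-/- ESCs, and none was at 0 in either. *Gata6* was at 0.54 and 16.4 RPKM, *Gata4* at 1.29 and 18.5, and *Sox17* at 0.24 and 5.93. More cells of this type and more RNA per cell cannot be told apart in these samples, and the part of such cells in the contact changes was not tested.

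Contacts of the *Nanog* promoter were kept in part. This is the targeted gene, so its own fragments may differ in the mutant, and the effect of this on its pairs was not tested. Its fragment (chr6:122707373-122709173) had 20 cis pairs in WT ESCs, 11 in Nanog-/- ESCs, and 12 in EpiSCs, and 8 of the WT pairs were in the Nanog-/- list, a scaled change of -0.42 with overlapping intervals. The kept pairs included the upstream fragments 43.2 kb (13 reads in WT and 11 in Nanog-/- ESCs) and 53.9 kb away (15 and 10 reads) and the promoter of *Foxj2* at 113 kb (9 and 8 reads). The nearest WT pair, at 7.20 kb (chr6:122714477-122716478), had 50 reads and was not listed in Nanog-/- ESCs, nor was the WT pair with the highest score, 12.87 from 13 reads at 78.0 kb (chr6:122784986-122787486), and both were listed in EpiSCs. In both cases the adjoining fragment was listed in Nanog-/- ESCs, at 10.2 kb with 21 reads and at 79.6 kb with 6 reads. The latter was also a WT pair, with 9 reads. The pair with *Slc2a3*, a glucose transporter gene, was also missing in Nanog-/- ESCs. One Nanog-/- pair reached 340 kb, farther than the 113 kb of the longest WT pair.

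Few pluripotency promoters could be compared, since most had under 10 pairs summed over both lists. The same held for promoters in general, of which 6862 of 17803 had at least 10. Of 20 naive pluripotency promoters 7 had at least 10 pairs, 1 was gained and none lost, against 7.45% and 8.16% of all tested promoters. *Socs3*, the feedback inhibitor of LIF signalling, had 2, 8, and 0 pairs in WT ESCs, Nanog-/- ESCs, and EpiSCs. Their summed pairs were 92 in both WT and Nanog-/- ESCs, so the median change of 0.29 after scaling was -0.10 before it. *Esrrb*, an orphan nuclear receptor gene, had 13 and 12 pairs in WT and Nanog-/- ESCs, *Klf2* 10 and 11, and *Spic* 12 and 9. *Tbx3* had 9 and 6, and *Klf4* 1 and 2. The numbers of the 22 general pluripotency promoters summed to 125 pairs in WT and 72 in Nanog-/- ESCs (127 in EpiSCs). The 7 with enough pairs had a median change of -0.42, or -0.68 under the distance rule, with 1 gained and none lost, against the same shares. The targeted gene *Nanog* is among these 7, and the median of -0.42 is its own value. *Phc1*, a Polycomb gene, had 14 and 7 pairs, *Zscan10* 9 and 4, *Tead2* 8 and 4, and *Lefty2* 9 and 7. *Sox2*, *Otx2*, *Lefty1*, and *Sall4* had 3, 4, 6, and 2 pairs in WT ESCs and none in Nanog-/- ESCs, numbers too small to call. *Etv5*, an ETS factor gene, was gained at 6 and 12 pairs with 8 in EpiSCs, and its relative *Etv4* had 7 and 1. Their RPKM were 299 and 209 for *Etv5* and 30.1 and 132 for *Etv4* in WT and Nanog-/- ESCs.

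Of 13 promoters of the primed epiblast and early lineages 4 were lost and 1 was gained, where 8.16% and 7.45% of all tested promoters were. Their median change of -0.33 was 0.09 under the distance rule, which called 3 lost, against 7.01% of all tested promoters. *Gsc*, the homeobox gene of the organizer (chr12:104471034-104477639), had 13, 2, and 12 pairs in WT ESCs, Nanog-/- ESCs, and EpiSCs, and *Eomes*, a T-box gene of the primitive streak, had 11, 3, and 22. *Lef1*, a transcription factor gene of Wnt signalling, had 8, 2, and 9 pairs and *Fgf8* 10, 3, and 9. The RPKM in WT and Nanog-/- ESCs were 0.95 and 0.06 for *Gsc*, 2.85 and 2.33 for *Eomes*, 9.72 and 3.54 for *Lef1*, and 6.26 and 1.01 for *Fgf8*. RNA did not fall across the list, since the RPKM of its 23 genes with a bait summed to 584 and 755. On the scale of log2(RPKM + 1), 3 of the 23 were at least 2-fold higher in Nanog-/- ESCs and 7 were lower. *Krt18*, a keratin gene on chromosome 15, was gained at 8 and 13 pairs, and its RNA was at 48.5 and 78.5 RPKM. *Zic2*, a zinc finger gene of neural development, had 20 and 21 pairs while its RNA was at 29.3 and 4.62 RPKM, and *T* had 12 and 7. These 13 promoters had no separate intervals in either direction.

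In primitive endoderm 6 promoters had at least 10 pairs, of which 1 was gained and 2 were lost, where 7.45% and 8.16% of all tested promoters were. *Pdgfra*, a receptor gene that marks the lineage (chr5:75151403-75152392), had 11 pairs in WT ESCs, 18 in Nanog-/- ESCs, and 12 in EpiSCs, and its RNA was at 0.94, 9.20, and 10.1 RPKM. The pair at 72.6 kb had the highest score in both lists, from 53 and 33 reads. With a score minimum of 7 its change was -0.05, so the gain rests on pairs of low score. *Lamc1*, a laminin gene, fell from 9 pairs to 1 and *Sox17*, an endoderm transcription factor gene, from 8 to 2, the latter called by the total only and not by the distance rule. The RNA of *Lamc1* was at 93.1 RPKM in WT and 131 in Nanog-/- ESCs. *Gata4* had 5 and 6 pairs, *Gata6* 4 and 1, and *Hnf4a* 10 and 8.

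Hox promoters kept a larger share of their WT contacts than any other of the 11 gene lists compared. The WT numbers of the 31 promoters summed to 772 pairs, of which 518 (67.1%) were also listed in Nanog-/- ESCs, against 41.9% of all WT pairs. A pair between Hox promoters enters this sum for each of them, whereas the 41.9% counts each pair once. The part of this in the share was not tested. The median change over 30 promoters was 0.05, or -0.11 under the distance rule, with 1 gained and none lost, where 7.45% and 8.16% of all tested promoters were. *Hoxc5* had 68 pairs in WT and 71 in Nanog-/- ESCs, *Hoxc8* 65 and 58, *Hoxb2* 30 and 31, and *Hoxa2* 21 and 20. *Hoxb1* had 26 and 11, and *Hoxd12*, the gained one, 4 and 7. The distance rule did not call *Hoxd12* (0.99), and its 1 gain was *Hoxd3* (27 and 23 pairs, 1.18). The RPKM of the 31 Hox genes summed to 5.32 in WT and 28.5 in Nanog-/- ESCs. Hox pairs are shorter than most (median 94.4 kb in WT ESCs), and the part of distance in the share was not tested. Of 69 other homeobox, T-box, forkhead, and Pax promoters 3 were gained (4.35%) and 4 lost (5.80%), against 7.45% and 8.16% of all tested promoters, with a median of 0.13. Under the distance rule 7 were gained and 1 was lost, where 5.92% and 7.01% of all tested promoters were, and the median was 0.34. Before scaling the median was -0.27. *Barhl1* rose from 12 to 21 pairs and *Foxo6* from 7 to 17, and *Foxo1* fell from 11 to 2, with 19 in EpiSCs, a loss by the total but not by the distance rule (-0.71).

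**Figure D5:**
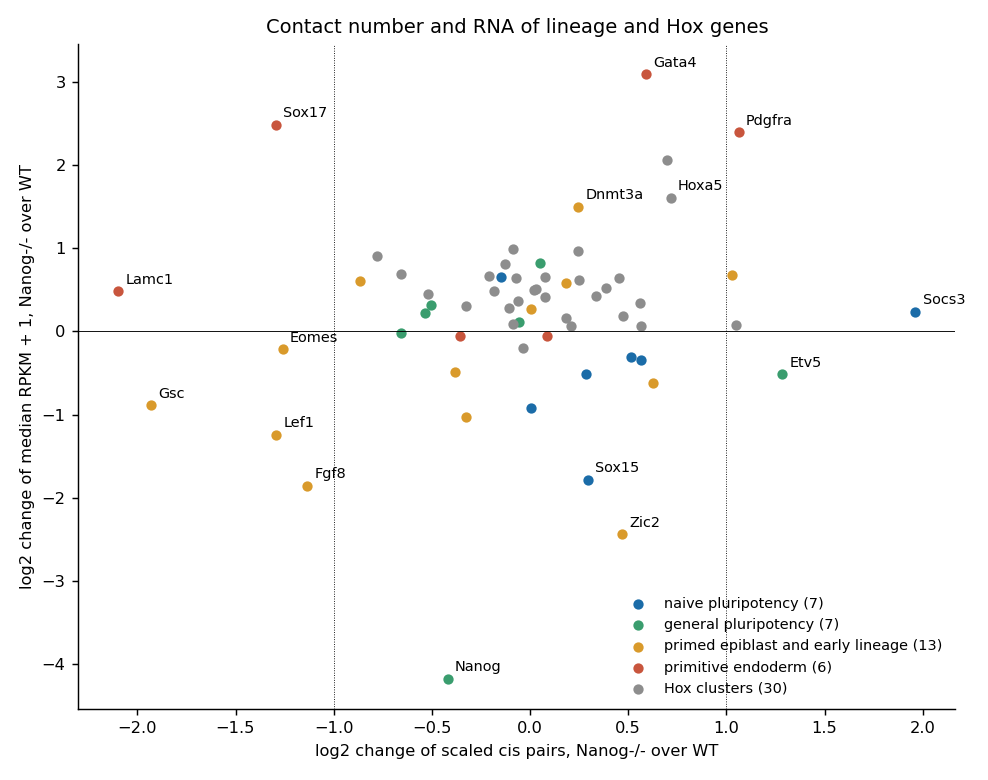
Change of the scaled number of cis pairs (x axis, log2) against the change of median RPKM plus 1 (y axis, log2), both Nanog-/- over WT ESCs, for promoters with at least 10 pairs summed in the lists of naive and general pluripotency, primed epiblast, primitive endoderm, and Hox genes. Dotted lines mark 2-fold changes of contacts; Gata4 and Zic2 change in RNA with contact changes of 0.59 and 0.47, and Gsc and Lamc1 lie at -1.93 and -2.10.

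Receptor and protocadherin gene clusters had many lost promoters and little RNA in ESCs. The Hox clusters also had little RNA, but none of their promoters was lost. Of 138 olfactory and vomeronasal receptor promoters 41 were lost (29.7%) and 2 gained, where 8.16% and 7.45% of all tested promoters were, and the median change was -0.51 (-0.36 under the distance rule). RNA was listed at 0 in WT ESCs for 580 of the 626 receptor genes with a value. Summed over the 658 receptor promoters, the numbers were 3196 in WT ESCs, 1242 in Nanog-/- ESCs, and 1591 in EpiSCs. A pair between receptor promoters enters these sums for each of them. *Olfr633* had 26, 5, and 14 pairs, *Olfr561* 27, 9, and 18, and *Olfr1440* 22, 6, and 14. Of 16 clustered protocadherin promoters, which give neurons their cell surface identity, 8 were lost and none gained, with a median of -0.94, and under the distance rule 5 were lost with a median of -0.67. *Pcdhb18* had 30, 7, and 27 pairs, *Pcdhb14* 28, 6, and 19, *Pcdhb17* 20, 2, and 9, and *Pcdha11*, not called by the distance rule, 37, 11, and 9. Genes of such clusters resemble one another, and how reads shared between copies were assigned is not given in the sources used here. The baits of the receptor and protocadherin lists were poor in GC, with medians of 42.6% and 42.4%. In the quintile of promoters with the lowest GC 22.3% were lost, and the part of GC in these losses was not tested. Of 19 histone promoters 3 were lost and 1 gained with a median of -0.75, and under the distance rule 7 were lost and none gained with a median of -0.79. Their RPKM summed to 89.9 in WT and 87.7 in Nanog-/- ESCs. *Hist1h1b*, a linker histone gene, had 11 and 2 pairs. *Hist1h4i*, lost by the total at 10 and 3 pairs, was not called under the distance rule (0.15), and its WT pairs had a median of 1497 kb. Of 23 ribosomal protein promoters, 1 was gained (*Rpl13*, 6 and 15 pairs) and none was lost, with a median of 0.14, and 2 were lost under the distance rule. Of 68 zinc finger promoters 2 were gained (2.94%) and 5 lost (7.35%), with a median of -0.10, and 8 were lost under the distance rule. For all these lists, the distance rule called 5.92% of all tested promoters gained and 7.01% lost.

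Changes in contact number and in RNA showed no relation across genes. The median change of log2(RPKM + 1) was 0.00 for the 420 genes of gained and 0.00 for the 463 genes of lost promoters, against 0.02 for all 5698 genes with a value, and Spearman's rho of contact and RNA change over these genes was 0.0018. At least 2-fold higher RNA was found for 1.19% of genes at gained, 2.38% at lost, and 1.61% at all tested promoters, and at least 2-fold lower RNA for 1.90%, 1.94%, and 1.42%. Seen from the other side, 92 promoters of genes with 2-fold higher RNA had 5 gained and 11 lost, and 81 promoters of genes with 2-fold lower RNA had 8 gained and 9 lost. These are 5.43% and 12.0% of the former and 9.88% and 11.1% of the latter, where 7.37% and 8.13% of all promoters with an RNA value were gained and lost. The genes with the largest changes had contacts of either kind. *Stra8*, a gene of meiotic entry, went from 6.16 to 42.3 RPKM with 21 and 17 pairs, and *Nostrin* from 0.20 to 5.42 RPKM with 15 and 9. *Ldhc*, a testis lactate dehydrogenase gene, went from 5.32 to 0.36 RPKM with 30 and 7 pairs, *Pnma5* from 14.3 to 1.93 with 13 and 2, and *Arhgap30* from 13.4 to 2.28 with 11 and 3. *Gli2*, a Hedgehog effector gene, fell from 29.8 to 5.19 RPKM with 5 and 6 pairs, and *Atp6v0a4* from 7.87 to 1.24 with 3 and 9. Of the named rises, *Zbtb4* was at 0.54 and 1.55 RPKM and *Cyp2d26* at 0.02 and 0.11, and *Muc5ac* was listed at 0 in both. Of the named falls, *Trip13* was at 56.0 and 65.9 RPKM, *Wfikkn2* at 0.13 and 0.15, and *Cadm3* at 0.24 and 0.51. The lost promoters had a lower median, 1.75 RPKM in WT ESCs against 4.86 for gained and 4.12 for all tested promoters, but by the distance rule the medians were 4.22 for lost and 2.82 for gained.

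The pairs with the highest scores in 1 list that were missing from the other lay mostly within 25 kb. In WT ESCs these were the pairs of *Tex21* and *Mthfd1* (11.7 kb, 62 reads, score 51.5), *Sprr2k* and *Sprr1b* (5.25 kb, 107 reads, score 50.8), *Slc25a2* and *Taf7* (6.20 kb, 72 reads, score 42.9), *Hmox2* and *Nmral1* (7.76 kb, 102 reads, score 39.6), and *Gm10945* and *Oprm1* (12.5 kb, 59 reads, score 37.0). The remaining one joined *Cd244* to a fragment 168 Mb away with 9 reads. In Nanog-/- ESCs they were the pair of *Zbtb4* with *Tnfsf12*, that of *Taf8* and *Usp49* (129.6 kb, 12 reads, score 20.9), and pairs of *SNORA17.522* (12.8 kb, 54 reads), *Dnahc6* (14.1 kb, 139 reads), *Dhx40* (15.0 kb, 78 reads), and *Eps8l1* (11.7 kb, 72 reads) with fragments without a bait. The EpiSC list held those of *Sprr2k*, *Hmox2*, *Cd244*, *Zbtb4*, *SNORA17.522*, and *Eps8l1* and not the other 6.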

How the data were processed

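The members and gene lists were chosen with earlier results of these data known. Per the paper's methods, the authors mapped PCHi-C reads with HiCUP, scored fragment pairs with CHiCAGO on replicates that were normalized and combined, and deposited 1 list per cell type with a read count and a score for each pair. The RNA table gives RPKM, which the authors reduced to a median per group before they deposited it; the submitters' processing notes name TopHat, Bowtie 1.1.0, Trim Galore, and DESeq2. Its columns of the authors' fold changes and p-values were not used. The column with the clone-like code was taken as Nanog-/- because the other groups are named in the other columns.

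Fragments matched HindIII sites of GRCm38. Each fragment pair was counted once per list, with the entry of the higher score. Totals of a gene list add the numbers of its promoters, so a pair between promoters of that list enters for each of them. Distances join fragment midpoints. Promoters were called at a 2-fold scaled change with a pseudocount of 1 pair, among those with at least 10 pairs. Intervals are Wilson for shares and exact Poisson for numbers. RPKM changes use a pseudocount of 1. Named promoters are the 12 largest scaled falls and rises at least 1 Mb apart, *Nanog*, pluripotency genes, up to 4 called members per list, and the 6 top pairs of 1 list alone per direction. Other genes and places named were chosen after their values were seen. The distance rule, the GC quintiles, and the places of long pairs were chosen after seeing the data. The computation of the calls was checked on simulated numbers, in which counting noise alone also gave calls among unchanged promoters. Their error rate in these lists was not measured. Python 3.11.15, numpy 2.4.6, pandas 2.3.3, scipy 1.17.1, and matplotlib 3.10.9 were used.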

Additional observations from a re-analysis of the deposited data

How the results depend on the processing

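No paired analysis was possible because each genotype has 1 combined contact list and 1 median RPKM column, which carry no replicate numbers, and for the same reason no replicate was left out. Counts per promoter are small, with a median of 11 pairs in WT and 9 in Nanog-/- ESCs among those tested, so single calls are uncertain.

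The share of WT pairs also in the Nanog-/- list was 43.2% with a score of at least 7, 44.9% with a score of at least 10, 48.1% with a WT list of the same length, 40.4% for pairs with an unbaited fragment, 39.7% with at least 10 reads, 41.2% without pairs whose ends differ in reads, and 64.0% when a partner within 10 kb counted. The difference in the share above 800 kb, Nanog-/- minus WT ESCs, was -0.93 percentage points, and -1.11 with a score of at least 10 and -0.094 with at least 10 reads. With at least 10 reads the shares were 0.125% in WT and 0.0311% in Nanog-/- ESCs, against 1.30% and 0.370% for all pairs. The difference was negative under the other 3 settings too. Gained promoters numbered 201 with a score of at least 7, 44 at 10, 237 without scaling, 331 with a pseudocount of 3, and 141 with at least 20 pairs. Lost promoters numbered 274, 77, 1295, and 177 under the first 3 of these and with at least 20 pairs. Of those called at a score of 5, 5 gained and 10 lost promoters were also called at 10. At these scores 2934 and 818 promoters were compared. The count of gained promoters was 470 without chromosome 15 and 429 after centring within GC quintiles. The share of promoters with a shorter median distance was 82.3% with at least 10 pairs in each list and 75.5% with a score of at least 7. The change of *Wfikkn2* was 0.34 at a score of at least 10, that of *Pdgfra* -0.049 at 7, and that of *Hist1h4i* 0.15 under the distance rule, against calls of the opposite sign, and the cause was not tested. Of 42 named promoters called gained or lost, 17 kept the call under each alternative that gave a value. Spearman's rho with RNA lay between -0.010 and 0.0030 under the 4 alternatives.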
